A study of Condylura cristata and Mus musculus with 12 samples.

Results

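The axon guidance ligands and receptors are the semaphorins with their plexin and neuropilin receptors, the ephrins with the Eph receptors, the netrins and netrin-Gs with Dcc and the Unc5 receptors, and the slits with the Robo receptors. They were chosen by gene symbol alone. No measured value entered the rule, but earlier results of these data were known when it was set. The mole and mouse count tables each held the same 70 of these genes, of 33773 mole genes, 26125 mouse genes and 24049 symbols found in both. By role, 37 were ligands and 33 were receptors.

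During development these proteins steer growing axons by attraction and repulsion at the growth cone. Class 3 semaphorins are secreted and act through holoreceptors of a neuropilin, which binds the ligand, and a plexin, which signals, whereas most other semaphorins are anchored to the membrane and bind plexins directly. Ephrins are membrane-bound and signal on contact with Eph receptor tyrosine kinases, netrins are secreted laminin-related cues read by Dcc and Unc5 receptors, and slits are secreted repellents read by Robo receptors. Many of the genes stay on in adult sensory neurons and in the glia around them.

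The study compared trigeminal ganglia (TG), whose neurons innervate the face and, in the star-nosed mole (Condylura cristata), the tactile star, with dorsal root ganglia (DRG), whose neurons innervate the body, to find transcripts that differ between them. The mole samples were whole ganglia of wild adult males, with 3 TG and 3 DRG libraries. The mouse samples were whole ganglia of adult female C57BL/6 mice, with 2 libraries labelled TG and 2 labelled DRG. Each library came from 1 individual, except that 1 mole DRG library combined 2 individuals and which one was not stated. Replicate 1 of each mole ganglion was made with another kit (Genomic Sample Prep, read at 76 bases) than all other libraries (TruSeq).

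Library totals were 8409670 to 11140894 counts in the mole TG, 9706906 to 92323879 in the mole DRG, 126677697 to 147076817 where mouse libraries were labelled TG and 90548941 to 125816358 where the label was DRG. TG 1 stood apart from the other mole TG libraries (rank correlations of 0.866 and 0.855, against 0.974 between TG 2 and TG 3), and DRG 2 from the other DRG libraries (0.919 and 0.900, against 0.970). Hox genes, which mark the spinal levels of the body axis, were lower in mole TG (19 of 28 tested fell, with 51.8 to 68.6 summed CPM, scaled counts per 1000000 library counts, in TG, against 348 to 404 in DRG). In mouse they went against the labels, with 25 of 30 higher in the libraries labelled TG (237 to 262 CPM in the libraries labelled TG, against 59.4 to 86.6 CPM in those labelled DRG). The mouse groups are therefore called by their library labels throughout. Other marker lists moved too, in directions that also turned between mole and mouse by label for myelin, central nervous system and nociceptor markers. Myelin and Schwann cell markers summed to 10901 to 12389 CPM in mole TG, against 2015 to 3925 CPM in mole DRG (8 of 13 rose), and to 5187 to 5229.5 CPM in mouse libraries labelled TG, against 12153 to 15655 CPM in those labelled DRG (10 of 13 fell). Central nervous system markers summed to 772 to 1184 CPM in mole TG, against 256 to 355 CPM in mole DRG (8 of 14 rose and 1 fell), and to 206 to 223 CPM in mouse libraries labelled TG, against 523 to 545 CPM in those labelled DRG (4 fell). Nociceptor markers summed to 663 to 788 CPM in mole TG, against 4576 to 5919 CPM in mole DRG (7 of 10 tested fell), and to 6045 to 6127 CPM in mouse libraries labelled TG, against 3518 to 3524 CPM in those labelled DRG (7 of 11 rose). Skeletal muscle markers were higher in mole TG (8 of 12 rose, 1657 to 3814 CPM in mole TG, against 524 to 1103 CPM in mole DRG) and in the mouse libraries labelled TG (8 of 12). In mole, surface epithelium markers summed to 78.8 to 1171 CPM in TG, against 25.3 to 48.5 CPM in DRG (5 of 11 tested rose), macrophage markers to 257 to 414 CPM in TG, against 97.5 to 104 CPM in DRG (5 of 9 tested rose), and satellite glia markers to 7662 to 8753 CPM in TG, against 2777 to 3180 CPM in DRG (1 of 8 rose and 1 fell). The satellite glia markers had a median log2 fold change, TG over DRG, of -0.14 in mole, although their sum was higher in TG. Of 10 light touch and proprioceptor markers 0 rose and 2 fell in mole TG, with a median log2 fold change of -0.55. They summed to 17110 to 37864 CPM in mole TG, against 12751 to 18840 CPM in mole DRG. Of 12 sensory neuron markers 0 rose and 3 fell in mole TG. None of the myelin, central nervous system or nociceptor markers was at 0 in any library, and the part of the marker lists in the results below was not tested.

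In the mole, 15 of the 70 guidance genes were higher in TG and 12 were higher in DRG, and 43 did not pass the threshold (edgeR quasi-likelihood test, Benjamini-Hochberg adjusted p under 0.05 over 18078 genes). The 27 genes called were 38.6% of the guidance genes, whereas 23.5% of all genes tested were called, 10.5% higher in TG and 12.9% higher in DRG. The median log2 fold change, TG over DRG, was 0.36 over the guidance genes and 0.11 over all genes. Ligands had a median of 0.93 (10 rose and 7 fell of 37) and receptors a median of 0.09 (5 rose and 5 fell of 33). All 3 TG libraries lay above all 3 DRG libraries in 26 of the 70 genes and below them in 15, against 21.7% and 22.4% of all genes. In bulk tissue such as this, fewer cells of a type and less RNA per cell cannot be told apart. Without TG 1 and DRG 2, which stood apart, 29 guidance genes rose and 18 fell, all 27 remained called, and 63.2% of all genes were called. Leaving out the libraries that agreed least with their group narrows the spread by construction, so this does not test the 27 calls. With 1 library left out at a time the guidance genes called numbered 6 without TG 2 (2.19% of all genes called), 9 without TG 3 (4.55%), 7 without DRG 1 (3.04%) and 7 without DRG 3 (3.61%), and stood at 29 without TG 1 (30.7%) and 29 without DRG 2 (36.8%).

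**Figure D1:**
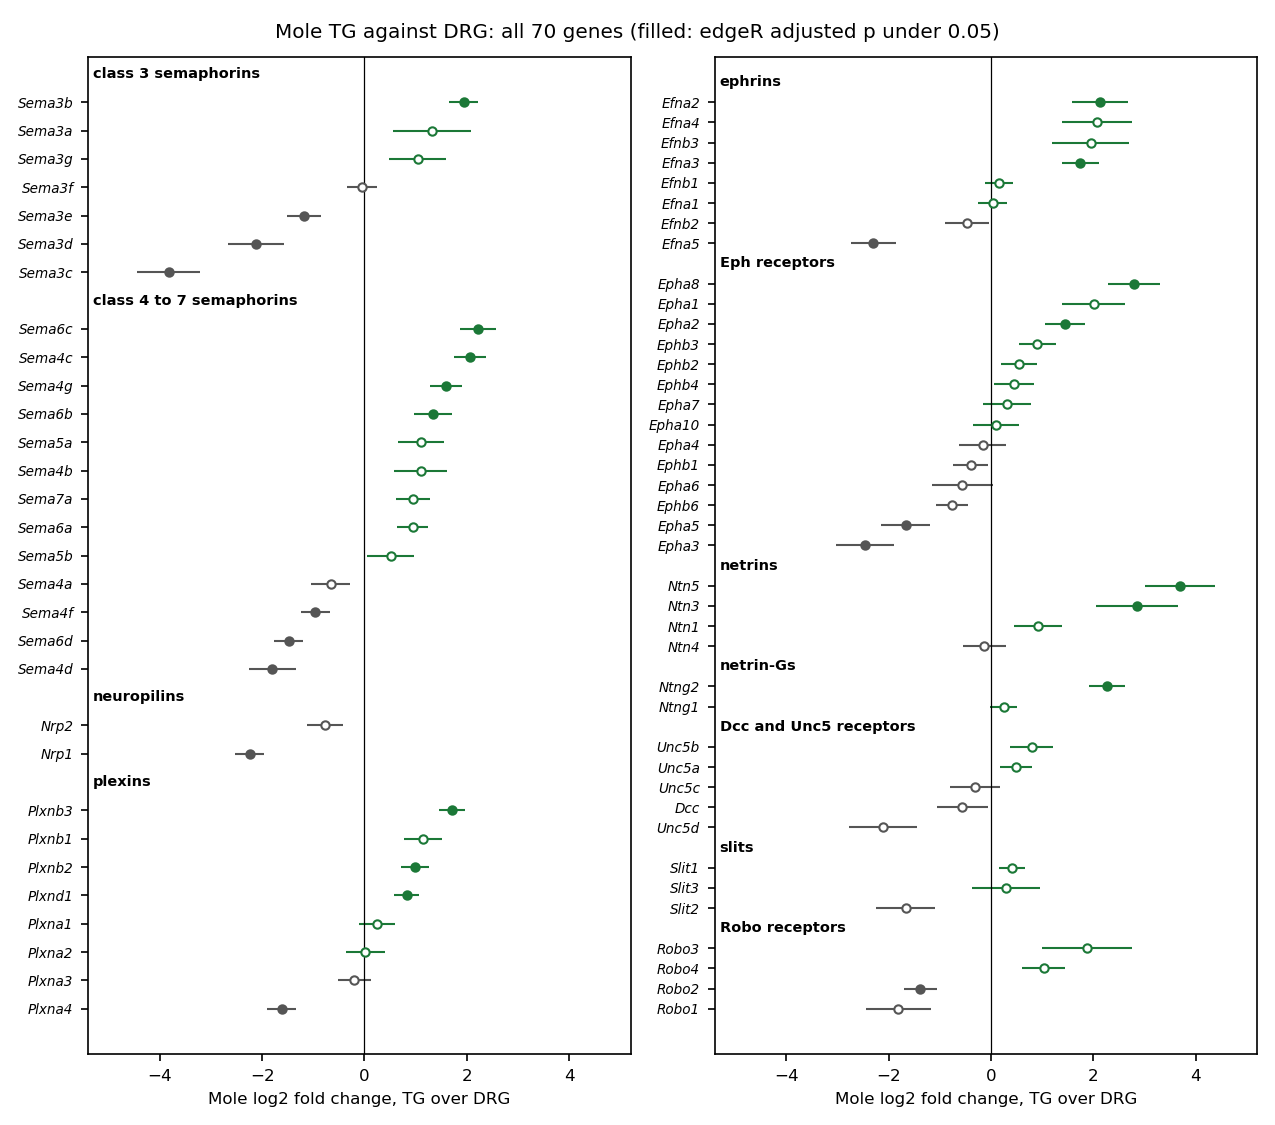
Mole log2 fold change, TG over DRG, of all 70 genes by family. Points are fitted values with their standard errors, green where positive and grey where negative, and filled points passed an edgeR adjusted p of 0.05. The 15 filled green points run up to Ntn5 at 3.70 and the 12 filled grey points down to Sema3c at -3.82.

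Class 3 semaphorins, the secreted ones, were split: of 7, 1 rose in mole TG, 3 fell and 3 did not pass. Sema3b had 547, 776 and 794 CPM in the TG, against 194, 142 and 216 CPM in the DRG. It was the highest class 3 semaphorin in mole per kilobase of mouse transcript, its TG and DRG libraries did not overlap, and it rose by 1.94 ± 0.28 on the log2 scale (± SE, as for all fold changes, edgeR adjusted p = 0.00846). Sema3c, which binds both neuropilins, had 2.82, 1.02 and 0.958 CPM in the TG, against 13.7, 17.7 and 35.2 CPM in the DRG. The DRG libraries were all higher than any TG library, and this was the largest negative fold change among the 70 genes (log2 fold change -3.82 ± 0.62, edgeR adjusted p = 0.0106). Sema3d had 7.67, 2.79 and 3.13 CPM in the TG, against 16.4, 12.01 and 29.9 CPM in the DRG. Sema3e, which unlike its relatives binds Plxnd1 without a neuropilin, had 17.6, 11.2 and 12.8 CPM in the TG, against 30.9, 24.1 and 39.1 CPM in the DRG. In both the TG libraries lay below the DRG libraries, with log2 differences of -2.12 ± 0.55 and -1.18 ± 0.33 (edgeR adjusted p = 0.032 and 0.04). Sema3a, the prototype repellent of sensory axons, averaged 2.31 ± 0.683 CPM in TG and 0.907 ± 0.621 CPM in DRG (SD, n = 3 each) and did not pass, nor did Sema3f and Sema3g, whose groups overlapped. Sema3b passed with any 1 library left out, Sema3c was lost without TG 2 (adjusted p = 0.0521), and Sema3d and Sema3e were lost without TG 2, TG 3, DRG 1 or DRG 3 (highest 0.123 and 0.162).

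Of the 13 class 4 to 7 semaphorins, 4 rose in mole TG (Sema6c, Sema4c, Sema4g and Sema6b), 3 fell (Sema4d, Sema6d and Sema4f) and 6 did not pass. Sema4c, a ligand of Plxnb2, had 160.3, 249 and 280.4 CPM in the TG, against 67.4, 43.6 and 54.5 CPM in the DRG, and Sema6c had 77.1, 95.1 and 111 CPM in the TG, against 13.3, 19.0 and 28.2 CPM in the DRG. In both every TG library exceeded every DRG library, with rises of 2.06 ± 0.31 and 2.22 ± 0.35 on the log2 scale (edgeR adjusted p = 0.00942 and 0.00992). Sema4g had 48.5, 35.2 and 52.6 CPM in the TG, against 18.1, 11.1 and 15.9 CPM in the DRG, and Sema6b, which binds Plxna4, had 18.6, 13.5 and 21.0 CPM in the TG, against 5.03, 9.08 and 6.81 CPM in the DRG. Neither had overlapping groups, and the log2 fold changes were 1.59 ± 0.32 and 1.34 ± 0.37 (edgeR adjusted p = 0.0159 and 0.0389). Among those that fell, Sema4d, the ligand of Plxnb1, had 4.98, 10.8 and 13.5 CPM in the TG, against 42.6, 21.6 and 37.9 CPM in the DRG. Sema6d, a ligand of Plxna1, had 31.5, 37.2 and 37.5 CPM in the TG, against 105, 71.8 and 119.5 CPM in the DRG. Sema4f had 44.0, 44.8 and 47.7 CPM in the TG, against 108, 61.8 and 96.7 CPM in the DRG. Their TG libraries were lower than all DRG libraries, by log2 differences of -1.80 ± 0.46, -1.48 ± 0.28 and -0.96 ± 0.28 (edgeR adjusted p = 0.0297, 0.0144 and 0.045). Sema7a, the lipid-anchored semaphorin, the highest of these classes per kilobase, had 492, 702 and 606 CPM in the TG, against 458, 219 and 259 CPM in the DRG. Its groups did not overlap, but the difference did not pass (log2 fold change 0.94 ± 0.33, edgeR adjusted p = 0.0763). The other 5 that did not pass (Sema4a, Sema4b, Sema5a, Sema5b and Sema6a) had log2 differences of -0.66 to 1.10. Sema4c and Sema6c passed with any 1 library left out, but with a trend in GC content taken out (GC offsets) Sema6c was at 0.79 (adjusted p = 0.177), Sema4g at 0.76 (0.186) and Sema6b at 0.0060 (0.992) on the log2 scale. Sema4g, Sema4d and Sema6d were lost without TG 2, TG 3, DRG 1 or DRG 3 (highest adjusted p = 0.0701, 0.103 and 0.0712), and Sema6b and Sema4f without TG 1 as well (highest 0.149 and 0.165).

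Plexins and neuropilins, the semaphorin receptors, had 3 members higher in mole TG and 2 lower among 10. The class B plexins, receptors of class 4 semaphorins, all had positive fold changes. Plxnb3 had 259, 239.6 and 269.6 CPM in the TG, against 87.8, 60.2 and 85.3 CPM in the DRG, with the 3 TG libraries close together and well above the DRG. Plxnb2, the Sema4c receptor, had 115, 165 and 193 CPM in the TG, against 87.7, 69.3 and 81.7 CPM in the DRG. Plxnd1, the Sema3e receptor, had 199.7, 240.4 and 281 CPM in the TG, against 156, 132 and 119 CPM in the DRG. None of the 3 overlapped between ganglia, and they rose by 1.72 ± 0.25, 0.99 ± 0.27 and 0.83 ± 0.25 on the log2 scale (edgeR adjusted p = 0.00859, 0.0388 and 0.0479). Plxnb1 did not overlap either but did not pass (log2 fold change 1.15 ± 0.37, edgeR adjusted p = 0.0563). Among the class A plexins, the partners of neuropilins, Plxna4 had 35.4, 25.4 and 36.6 CPM in the TG, against 111, 80.0 and 107 CPM in the DRG. It fell in TG (log2 fold change -1.62 ± 0.28, edgeR adjusted p = 0.0118), whereas Plxna1, Plxna2 and Plxna3 overlapped, with log2 differences of -0.20 to 0.25. Nrp1, the neuropilin that binds Sema3a, had 11.8, 11.8 and 11.9 CPM in the TG, against 63.4, 43.0 and 62.0 CPM in the DRG. The TG libraries were nearly equal and far below the DRG, and Nrp1 had the lowest adjusted p of the 70 genes (log2 fold change -2.24 ± 0.29, edgeR adjusted p = 0.0077). Nrp2, the main receptor subunit for Sema3f, had 26.0, 30.8 and 47.0 CPM in the TG, against 77.4, 41.4 and 58.5 CPM in the DRG, with overlapping groups, and did not pass (edgeR adjusted p = 0.143). With GC offsets Plxnb2 was at 0.11 (adjusted p = 0.793) and Plxnd1 turned to -0.33 (0.383). Plxnb3 and Nrp1 passed with any 1 library left out. Plxna4 was lost without TG 2, DRG 1 or DRG 3 (highest adjusted p = 0.0669), and Plxnb2 and Plxnd1 without any library other than TG 1 (highest 0.155 and 0.190).

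Of the 8 ephrins, 2 rose in mole TG, 1 fell and 5 did not pass. Efna5, a lipid-anchored ephrin known for setting up topographic maps, had 13.9, 7.54 and 4.87 CPM in the TG, against 48.0, 32.6 and 47.8 CPM in the DRG. It fell in TG, with no overlap (log2 fold change -2.30 ± 0.44, edgeR adjusted p = 0.0145). Efna3 had 15.6, 17.1 and 16.4 CPM in the TG, against 5.03, 6.25 and 3.40 CPM in the DRG, and Efna2 had 2.69, 4.75 and 4.87 CPM in the TG, against 1.14, 0.683 and 0.976 CPM in the DRG. Both were higher in every TG library than in any DRG library, by 1.75 ± 0.37 and 2.13 ± 0.54 on the log2 scale (edgeR adjusted p = 0.0179 and 0.0301). Efna2 was a low gene, with 7 counts in its lowest library. Efna4 and Efnb3, with 5 counts in their lowest libraries, had fold changes of like size that did not pass (log2 2.07 ± 0.68 and 1.95 ± 0.75, edgeR adjusted p = 0.0625 and 0.0952). Efna1, Efnb1 and Efnb2 overlapped between ganglia. Of these Efna1, the highest ephrin per kilobase, had 49.5, 35.2 and 36.6 CPM in the TG, against 46.5, 39.0 and 32.5 CPM in the DRG. All 3 calls were lost without TG 2, TG 3, DRG 1 or DRG 3 (highest adjusted p = 0.0828 for Efna3, 0.134 for Efna2 and 0.0690 for Efna5).

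The 14 Eph receptors included 2 that rose in mole TG, 2 that fell and 10 that did not pass. Epha8 had 21.9, 18.8 and 24.2 CPM in the TG, against 1.52, 5.37 and 2.56 CPM in the DRG, and Epha2 had 12.1, 27.1 and 27.3 CPM in the TG, against 8.36, 8.10 and 8.03 CPM in the DRG. Neither overlapped, and they rose by 2.79 ± 0.51 and 1.44 ± 0.39 on the log2 scale (edgeR adjusted p = 0.0131 and 0.0366). Epha5 and Epha3, receptors of A-type ephrins such as Efna5, went the other way. Epha5 had 2.42, 2.23 and 5.22 CPM in the TG, against 11.6, 8.30 and 11.6 CPM in the DRG, and Epha3 had 1.75, 1.02 and 0.609 CPM in the TG, against 5.51, 5.08 and 7.78 CPM in the DRG. Their TG libraries lay below the DRG libraries (log2 fold changes -1.67 ± 0.47 and -2.46 ± 0.56, edgeR adjusted p = 0.041 and 0.0221). Ephb6, which lacks kinase activity, was the highest Eph receptor per kilobase, with 55.3, 62.1 and 73.4 CPM in the TG, against 73.9, 146 and 102 CPM in the DRG. It was lower in each TG library than in each DRG library but did not pass (log2 fold change -0.76 ± 0.31, edgeR adjusted p = 0.113). The other 9 had log2 differences of -0.56 for Epha6 to 2.01 for Epha1, which narrowly missed the threshold (adjusted p = 0.052). Epha8 was lost without TG 2, DRG 1 or DRG 3 (highest adjusted p = 0.0617), Epha3 without TG 2, TG 3, DRG 1 or DRG 3 (0.0971), Epha5 without any library other than DRG 2 (0.153), and Epha2 without any library other than TG 1 (0.145).

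Netrin ligands rose in mole TG where they passed, and none of their classical receptors passed. Ntng2, a lipid-anchored netrin-G that binds Lrrc4 rather than Dcc, had 266, 586 and 557 CPM in the TG, against 107, 97.1 and 86.7 CPM in the DRG. TG 1 was lower than the other TG libraries but still above all DRG libraries, and Ntng2 rose by 2.28 ± 0.35 on the log2 scale (edgeR adjusted p = 0.00948). Its relative Ntng1 had 64.5, 51.3 and 42.5 CPM in the TG, against 46.8, 43.9 and 42.2 CPM in the DRG, with overlapping groups and an adjusted p of 0.503. Ntn5 had 2.56, 3.81 and 4.18 CPM in the TG, against 0.0950, 0.390 and 0.297 CPM in the DRG, and Ntn3 had 3.09, 7.91 and 8.44 CPM in the TG, against 0.475, 1.95 and 0.382 CPM in the DRG. Both were near the bottom of the range in DRG, where the lowest library held 1 count of Ntn5 and 5 of Ntn3, and both were higher in every TG library (log2 fold changes 3.70 ± 0.69 and 2.85 ± 0.80, edgeR adjusted p = 0.0136 and 0.0392). Ntn1, the founding attractant of the family, had 9.82, 18.9 and 27.9 CPM in the TG, against 7.22, 14.0 and 8.65 CPM in the DRG. It overlapped and did not pass (edgeR adjusted p = 0.18), nor did Ntn4 (0.832). Of the 5 Dcc and Unc5 receptors edgeR called 0, with 1 at an unadjusted p under 0.05 and 1 called each by DESeq2 and limma-voom. That one at an unadjusted p under 0.05 was Unc5d, with 3.77, 0.744 and 1.13 CPM in the TG, against 5.98, 8.30 and 9.67 CPM in the DRG, and its edgeR adjusted p was 0.0544. Unc5a, the highest of the 5 per kilobase, had 29.0, 36.8 and 52.8 CPM in the TG, against 31.9, 29.0 and 23.7 CPM in the DRG, and overlapped. Ntng2 passed with any 1 library left out, and Ntn5 and Ntn3 were lost without TG 2, TG 3, DRG 1 or DRG 3 (highest adjusted p = 0.0672 and 0.136).

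Among the slits and Robo receptors 1 of 7 passed. Robo2, a slit receptor, had 50.6, 31.1 and 26.5 CPM in the TG, against 82.4, 83.2 and 115 CPM in the DRG. Every TG library was below every DRG library, and Robo2 fell in TG (log2 fold change -1.38 ± 0.33, edgeR adjusted p = 0.0249), but not without TG 2, TG 3, DRG 1 or DRG 3 (highest 0.113). Robo1, its close paralog, had 16.4, 3.16 and 4.18 CPM in the TG, against 20.2, 30.7 and 31.6 CPM in the DRG. The TG libraries were again the lower ones, with TG 1 near the DRG, and the adjusted p was 0.0737. Robo3 and Robo4 had positive fold changes that did not pass (adjusted p = 0.156 and 0.113). Of the 3 slits edgeR called 0, with 1 at an unadjusted p under 0.05 and 1 called each by DESeq2 and limma-voom. Slit1, the highest slit per kilobase, had 138, 157 and 184 CPM in the TG, against 143, 114 and 103 CPM in the DRG, and overlapped. Slit2 had 5.51, 12.4 and 21.6 CPM in the TG, against 58.0, 19.2 and 48.5 CPM in the DRG, so that TG 3 lay just above DRG 2 and the groups overlapped (log2 fold change -1.67 ± 0.58, edgeR adjusted p = 0.0722).

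**Figure D2:**
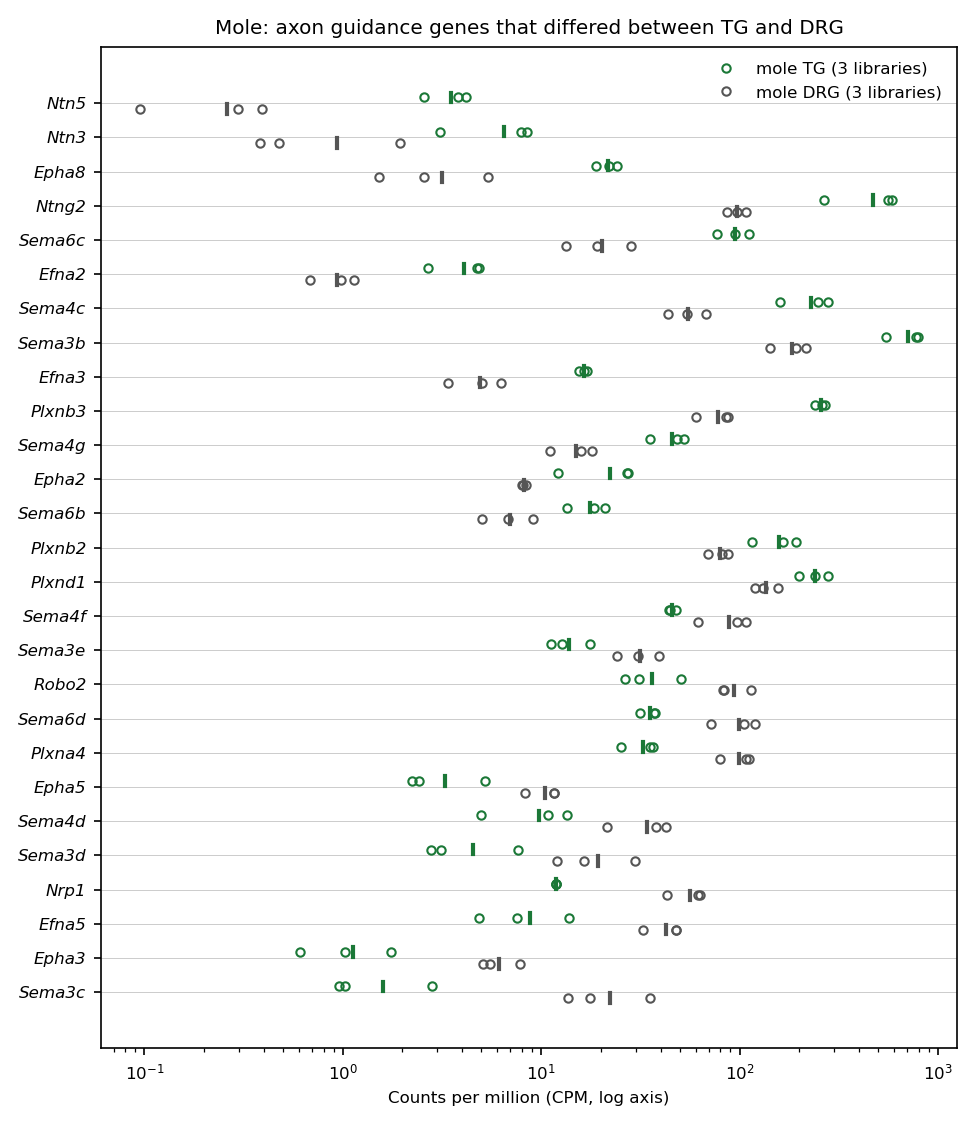
Levels in CPM (log axis) of the 27 genes that differed between mole TG (green, upper points of each row) and mole DRG (grey, lower points), with 1 circle a library and bars at the means of 3. In every row the 3 TG circles lie on one side of the 3 DRG circles, from Ntn5 at the top to Sema3c at the bottom.

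Levels of different genes were set side by side only per kilobase of the mouse transcript of that symbol, as the mean over all libraries of a species. On that scale Sema3b stood at 130.4 CPM per kb in mole and 66.7 in mouse, and Sema7a at 138 and 44.5. Both were among the 3 highest of the 70 genes in each species. Ntng2 was the highest over all mole libraries at 151 CPM per kb but 19th in mouse at 13.2. Its mouse transcript (1881 bases) was shorter than those of Sema7a (3297) and Sema3b (3410). Mole reads were aligned to human transcripts first, so the mole ranks depend on how well these mouse lengths apply. By ganglion Ntng2 stood at 250 CPM per kb in mole TG, where it was the highest, and at 51.6 in mole DRG, where Sema7a (94.7) and Sema3b (54.0) were above it. The lowest over all mole libraries was Sema3a at 0.272 CPM per kb, but the lowest in TG was Epha3 at 0.199 and the lowest in DRG was Ntn5 at 0.148. The lowest in mouse was Epha3 at 0.266 CPM per kb. Across the 70 genes the log2 levels per kb of mole and mouse had a Pearson correlation of 0.812 and a Spearman correlation of 0.830, as a description across genes, which are not independent replicates. Together the 70 genes took 0.294% to 0.485% of all counts in mole TG, 0.234% to 0.276% in mole DRG, and in mouse 0.320% in each library labelled TG, against 0.342% and 0.394% where the label was DRG.

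In mouse, 2 guidance genes were higher in the libraries labelled TG, 10 were higher in those labelled DRG and 58 did not pass (edgeR quasi-likelihood test, Benjamini-Hochberg adjusted p under 0.05 over 21394 genes). The 12 called were 17.1% of the guidance genes, against 2.33% of all genes tested (1.12% higher under the TG label and 1.21% under the DRG label). The median log2 fold change, TG over DRG by label, was -0.28 over the guidance genes and -0.02 over all genes. Both libraries labelled TG lay above both labelled DRG in 15 of the 70 genes and below them in 34, against 24.2% and 23.9% of all genes. Ligands had 2 higher and 6 lower in the libraries labelled TG, and receptors 4 lower.

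Semaphorins made up 5 of the 10 that were lower in the libraries labelled TG. Sema3b had 130.3 and 129.7 CPM in the libraries labelled TG, against 283 and 367 CPM in those labelled DRG. Sema4c had 74.3 and 62.7 CPM in the libraries labelled TG, against 167 and 185 CPM in those labelled DRG. Sema6c had 32.9 and 30.0 CPM in the libraries labelled TG, against 70.3 and 89.3 CPM in those labelled DRG. In these 3 both libraries labelled TG lay below both labelled DRG, with log2 differences of -1.32 ± 0.16, -1.36 ± 0.15 and -1.34 ± 0.17 (edgeR adjusted p = 0.0197, 0.016 and 0.0209). Sema4g had 16.0 and 18.4 CPM in the libraries labelled TG, against 39.3 and 40.6 CPM in those labelled DRG, and Sema7a had 117 and 105 CPM in the libraries labelled TG, against 176 and 189 CPM in those labelled DRG. Neither overlapped, and the log2 fold changes were -1.22 ± 0.17 and -0.72 ± 0.13 (edgeR adjusted p = 0.0263 and 0.049). Of their receptors, Plxnb1 had 44.3 and 43.9 CPM in the libraries labelled TG, against 102 and 84.9 CPM in those labelled DRG, and Plxnb3 had 45.5 and 44.0 CPM in the libraries labelled TG, against 102 and 84.9 CPM in those labelled DRG. Both fell in the libraries labelled TG (log2 fold changes -1.08 ± 0.15 and -1.06 ± 0.15, edgeR adjusted p = 0.0265 and 0.0288). Plxnb1 and Plxnb3 had nearly the same mouse counts, 5623 and 5777, then 6408 and 6430, in the libraries labelled TG, against 13346 and 13391, then 7443 and 7438, in those labelled DRG, so their mouse values are uncertain as separate measurements, and whether these paralogs shared reads was not tested. Nrp1 had 107 and 133 CPM in the libraries labelled TG, against 95.3 and 77.6 CPM in those labelled DRG, without overlap, and did not pass (edgeR adjusted p = 0.251). Nrp2 had 124 and 131 CPM in the libraries labelled TG, against 147 and 108 CPM in those labelled DRG. Plxna2, a class A plexin, had 208 and 209 CPM in the libraries labelled TG, against 214 and 155 CPM in those labelled DRG. Both overlapped.

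In the ephrin system Efna5 had 50.3 and 42.9 CPM in the libraries labelled TG, against 24.1 and 24.7 CPM in those labelled DRG. It was higher in the libraries labelled TG (log2 fold change 0.93 ± 0.16, edgeR adjusted p = 0.0441). Efnb3, a transmembrane ephrin, had 3.41 and 3.92 CPM in the libraries labelled TG, against 14.4 and 16.6 CPM in those labelled DRG, the largest fold change of the 70 genes in mouse (log2 -2.08 ± 0.23, edgeR adjusted p = 0.0166). Epha7 had 5.61 and 7.49 CPM in the libraries labelled TG, against 23.3 and 16.2 CPM in those labelled DRG, and Ephb1 had 3.82 and 4.99 CPM in the libraries labelled TG, against 11.3 and 11.4 CPM in those labelled DRG. Both receptors were lower in the libraries labelled TG (log2 fold changes -1.59 ± 0.27 and -1.36 ± 0.24, edgeR adjusted p = 0.0434 and 0.0483). Efnb2, another transmembrane ephrin, had 46.7 and 48.6 CPM in the libraries labelled TG, against 48.9 and 48.8 CPM in those labelled DRG, and Ephb6 had 59.4 and 48.1 CPM in the libraries labelled TG, against 75.2 and 84.2 CPM in those labelled DRG. The Efnb2 libraries were nearly equal, and Ephb6 lay lower in the libraries labelled TG but did not pass (edgeR adjusted p = 0.148).

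Ntn1 had 26.7 and 20.7 CPM in the libraries labelled TG, against 9.69 and 9.45 CPM in those labelled DRG, and was the other gene higher in the libraries labelled TG (log2 fold change 1.31 ± 0.21, edgeR adjusted p = 0.0365). No call was made in 5 families. At an unadjusted p under 0.05 these had 1 of 2 neuropilins, 2 of 2 netrin-Gs, 1 of 5 Dcc and Unc5 receptors, 3 of 3 slits and 1 of 4 Robo receptors. DESeq2 called 2 netrin-Gs, 1 Dcc or Unc5 receptor and 1 Robo receptor there, and limma-voom called 0. Ntng1 had 52.5 and 58.8 CPM in the libraries labelled TG, against 91.0 and 76.2 CPM in those labelled DRG, and Ntng2 had 14.8 and 17.5 CPM in the libraries labelled TG, against 23.4 and 43.5 CPM in those labelled DRG. Unc5c had 19.2 and 23.5 CPM in the libraries labelled TG, against 30.8 and 15.6 CPM in those labelled DRG. Slit1 had 146 and 147 CPM in the libraries labelled TG, against 106 and 109 CPM in those labelled DRG, and Robo2 had 216 and 255 CPM in the libraries labelled TG, against 169.6 and 145 CPM in those labelled DRG. Slit1, Robo2 and both netrin-Gs did not overlap between labels, Slit1 and Robo2 being higher in the libraries labelled TG and the netrin-Gs lower. Over all 70 genes 33 had an unadjusted p under 0.05 (16.2% of all genes) and DESeq2 called 21, 5 higher and 16 lower (8.4% of all genes). The mouse calls did not hold without either library labelled TG, where few of all genes passed, and held without either labelled DRG. Each of these fits left 1 library in a group, so counts are not given.

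**Figure D3:**
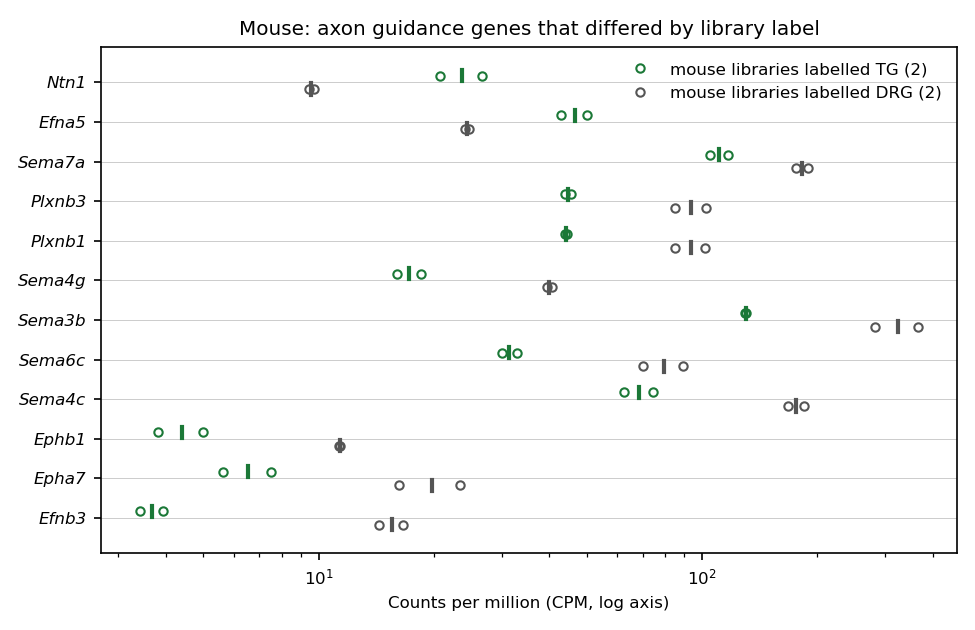
Levels in CPM (log axis) of the 12 genes that differed between mouse libraries labelled TG (green, upper points) and labelled DRG (grey, lower points), with 1 circle a library and bars at the means of 2. Ntn1 and Efna5 lie to the right in the libraries labelled TG, and the other 10 genes lie to the left.

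The mole and the mouse were then compared. They also differed in sex and in how reads were aligned, which cannot be told apart from species. Since the Hox genes go against the mouse labels, each direction in mouse is by label, and the same values with the mouse labels exchanged (an alternative added after the Hox values were seen) are given beside those by label. Of the 70 genes, 44 had fold changes of opposite sign in mole and in mouse by label, a share close to the 61.7% of all genes tested in both. With the mouse labels exchanged 26 were opposite, again a share close to that of all genes (38.3%). The 6 genes called in both species, Sema3b, Sema4c, Sema4g, Sema6c, Plxnb3 and Efna5, all ran in opposite directions by label, and 0 of the 6 would with the mouse labels exchanged. The mouse value of Plxnb3 is uncertain, its counts being nearly those of Plxnb1. Of all genes tested in both, 189 were called in both, 178 in opposite directions by label and 11 in the same one, which exchanging the labels turns round to 11 opposite and 178 the same. Across the 70 genes the mole and mouse log2 fold changes had a Pearson correlation of -0.457 and a Spearman correlation of -0.460, against -0.280 and -0.318 over 14817 genes, given as descriptions across genes. Exchanging the mouse labels gives the same sizes with a positive sign, 0.457 and 0.460 over the 70 genes.

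The difference itself was tested as an interaction, the mole fold change minus the mouse fold change by label, in one fit of all 10 libraries, which set its own scale. It passed for 24 of the 70 genes (34.3%, against 17% of 21580 symbols), 12 positive and 12 negative (4.39% and 12.6% of all symbols). With the mouse labels exchanged it passed for 7 (7.25% of all symbols), 1 positive and 6 negative. Of these 7, Nrp1 (-2.09 ± 0.40, edgeR adjusted p = 0.0224), Sema3c (-3.55 ± 0.75, 0.0252), Plxna4 (-1.83 ± 0.42, 0.0315) and Epha3 (-2.93 ± 0.77, 0.0449) were among the 24 by label, with the same sign. The others were Epha8 (2.99 ± 0.67, 0.0296), Ephb1 (-2.07 ± 0.51, 0.0374) and Ephb6 (-1.62 ± 0.42, 0.0432). The remaining 20 of the 24 did not pass with the labels exchanged. Some kept their sign and most of their size, such as Epha5 (-1.94 ± 0.62, 0.077) and Sema4f (-1.32 ± 0.41, 0.0713). In others little was left or the sign turned, such as Sema4g (0.064 ± 0.45, 0.943) and Efnb3 (-0.37 ± 0.86, 0.813). By label, the semaphorin system held 15 of the 24, the ephrin system 6, the netrin system 2 and the slit system 1. Sema3c had 24.1 and 28.3 CPM in the libraries labelled TG, against 18.8 and 15.7 CPM in those labelled DRG, and its interaction was the most negative at -4.91 ± 0.76 (edgeR adjusted p = 0.00313). In mole the Sema3c difference was large and negative and in mouse it was small, positive by label and did not pass. Ntn5 had 1.57 and 1.39 CPM in the libraries labelled TG, against 2.48 and 4.42 CPM in those labelled DRG, and its interaction was the most positive at 4.45 ± 0.86 (edgeR adjusted p = 0.00745). It was higher in mole TG and, in mouse, lower in the libraries labelled TG, where it did not pass. Under exchanged mouse labels the Ntn5 interaction was 2.18 ± 0.83 and did not pass (edgeR adjusted p = 0.126). Nrp1 had the lowest adjusted p, with an interaction of -3.19 ± 0.41 (edgeR adjusted p = 0.0014). Of the genes called in both species, Efna5 had an interaction of -3.70 ± 0.59, Sema6c of 3.09 ± 0.48, Sema4c of 2.94 ± 0.44, Sema3b of 2.78 ± 0.41, Sema4g of 2.34 ± 0.46 and Plxnb3 of 2.31 ± 0.38 (edgeR adjusted p = 0.00363, 0.003, 0.00266, 0.00256, 0.00769 and 0.00422). Under exchanged mouse labels Efna5 was at -1.68 ± 0.58 and Sema6c at 0.57 ± 0.46 (edgeR adjusted p = 0.0958 and 0.465). Sema4c was then at 0.37 ± 0.43, Sema3b at 0.30 ± 0.40 and Plxnb3 at 0.34 ± 0.38 (edgeR adjusted p = 0.612, 0.669 and 0.603). Sema6d had 148 and 154 CPM in the libraries labelled TG, against 133 and 103 CPM in those labelled DRG, and its interaction was -2.31 ± 0.41 (edgeR adjusted p = 0.0056). Ntng2, with an interaction of 2.84 ± 0.52 (edgeR adjusted p = 0.00607), rose in mole TG and lay lower in the mouse libraries labelled TG. Under exchanged mouse labels Sema6d was at -1.45 ± 0.41 and Ntng2 at 0.91 ± 0.51 (edgeR adjusted p = 0.0555 and 0.278). The split depended on the scaling. With RLE factors the median difference of all genes moved up by 0.47 on the log2 scale and 16 guidance genes were positive and 8 negative, 20 of them among the 24. With 1 mole library left out the count was 18 to 30 (10.3% to 29% of all symbols). Without any 1 mouse library, where 1 was left in a group, fewer guidance genes and fewer of all symbols passed.

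**Figure D4:**
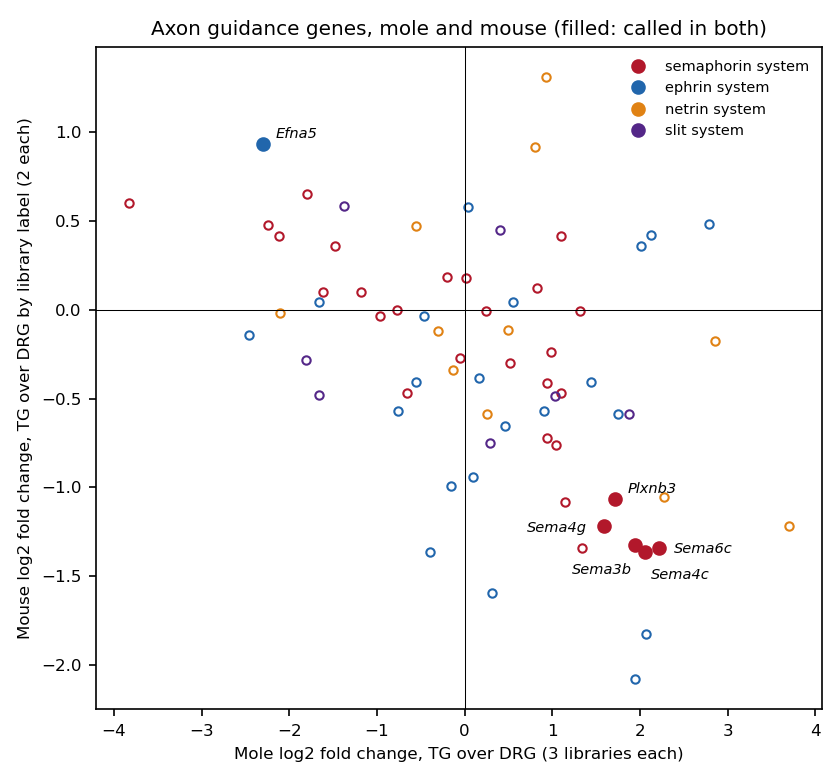
Mole log2 fold change, TG over DRG (horizontal), against mouse log2 fold change, TG over DRG by library label (vertical), with 1 circle for each of the 70 genes, coloured by system. The 6 filled genes were called in both species, and all lie in the upper left or lower right corner, where the signs are opposite by label. With the mouse labels exchanged the vertical axis would be turned over and all 6 would have the same sign. The mouse value of Plxnb3 is uncertain, its counts being nearly those of Plxnb1.

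GC content moved with the mole fold change. GC was taken from the mouse transcript of the same symbol, since mole transcript sequence was not used here. Guidance genes higher in mole TG had a median GC of 57.9% (range 55.8% to 63.5%) and those higher in mole DRG 43.7% (39.2% to 57.3%), against 55.3% in those not called. Over all genes the medians were 56.6% higher in TG, 45.7% higher in DRG and 50.9% for all tested. The genes that were higher in mole TG were also shorter, with a median transcript length of 3913 bases, against 5985 bases in those higher in DRG. Across the 70 genes the mole log2 fold change and GC had a Pearson correlation of 0.664 and a Spearman correlation of 0.619, and in mouse by label -0.274 and -0.268. When a smooth trend in GC was taken out of each library, as in the GC offsets above, the mole correlations were 0.179 and 0.167, and 15 genes were called, 6 higher in TG and 9 higher in DRG, 11 of them among the 27, with 12% of all genes called. Those 11 were Sema4c, Ntng2, Ntn5 and Epha8, higher in TG, and Sema3c, Nrp1, Efna5, Sema4d, Plxna4, Sema6d and Sema4f, higher in DRG. Sema3b and Plxnb3 kept their sign and just missed the threshold (log2 fold changes 1.01 and 1.02, edgeR adjusted p = 0.0611 and 0.0567), whereas Sema6c, Sema4g, Plxnb2 and Sema6b were further from it and Plxnd1 changed sign. The other 9 calls lost were Sema3d, Sema3e, Efna2, Efna3, Epha2, Epha3, Epha5, Ntn3 and Robo2, all with the sign they had without the offsets. The 4 genes called only with the offsets were Sema5a (1.89) and Sema6a (1.36), higher in TG, and Ephb6 (-1.75) and Sema4a (-1.46), higher in DRG. In mouse 11 were called with the offsets, 9 of them among the 12, with 3.77% of all genes called. The part of GC content and length in the fold changes was not tested.

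**Figure D5:**
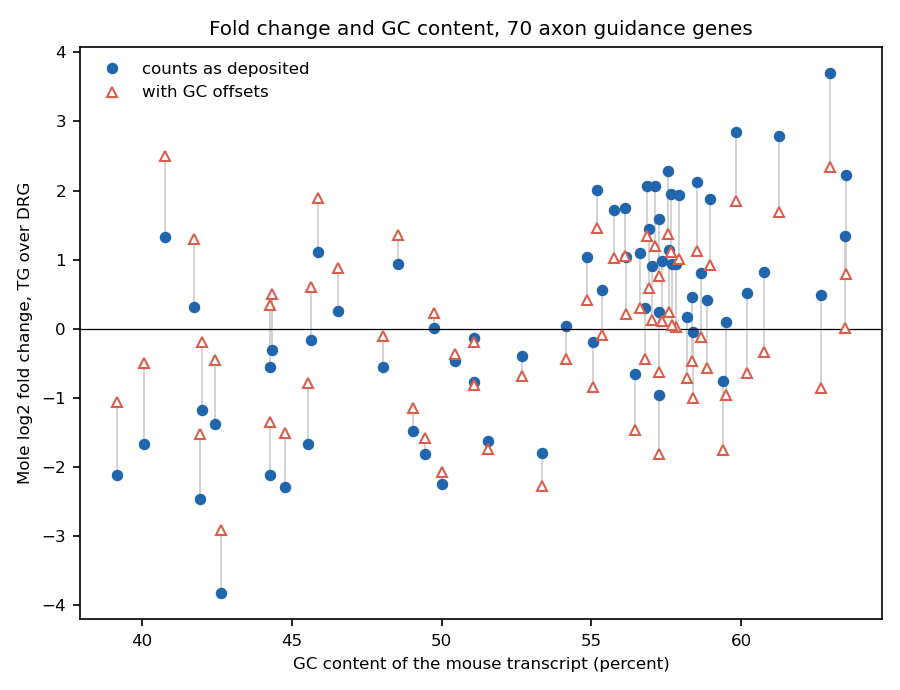
Mole log2 fold change, TG over DRG, of the 70 genes against the GC content of the mouse transcript (percent). Blue circles are from the counts as deposited and red triangles from the same counts with GC offsets, joined by a line for each gene. The circles climb with GC (Pearson 0.664) and the triangles climb less (0.179).

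Genes that act downstream of these cues were counted as well. Of 44 effectors, the adaptors, kinases and GTPase regulators that carry guidance signals to the cytoskeleton, 2 rose and 6 fell in mole TG (18.2%, against 23.5% of all genes), with a median log2 fold change of -0.14. Chn1, a Rac GTPase-activating protein of Eph and semaphorin signalling, had 39.5, 28.4 and 44.6 CPM in the TG, against 128, 149 and 133 CPM in the DRG. Nck1, an adaptor, had 3.23, 2.42 and 4.44 CPM in the TG, against 16.6, 12.7 and 22.3 CPM in the DRG. Rasa1, a Ras GTPase-activating protein, had 24.6, 16.7 and 20.5 CPM in the TG, against 71.3, 47.3 and 105 CPM in the DRG. These 3 had no overlap and fell in TG, by log2 differences of -1.86 ± 0.27, -2.35 ± 0.42 and -1.86 ± 0.36 (edgeR adjusted p = 0.00845, 0.0123 and 0.0149). Mical1, an actin-oxidising enzyme of plexin signalling, had 81.5, 63.7 and 99.4 CPM in the TG, against 44.3, 15.4 and 28.4 CPM in the DRG, and Ngef, an exchange factor for Eph receptors, had 27.6, 23.5 and 32.6 CPM in the TG, against 12.7, 13.7 and 9.40 CPM in the DRG. Both rose in mole TG (log2 fold changes 1.47 ± 0.41 and 1.23 ± 0.31, edgeR adjusted p = 0.0388 and 0.0297). In mouse edgeR called 0 of the 44 effectors, against 2.33% of all genes, and 10 had an unadjusted p under 0.05, against 16.2%. DESeq2 called 4, against 8.4% of all genes, and limma-voom 0, against 2.51%.

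Of 22 other guidance cues and receptors, 3 rose in mole TG and 2 fell (22.7%, against 23.5% of all genes). Rgma, a lipid-anchored repellent, had 36.0, 41.3 and 72.2 CPM in the TG, against 6.36, 15.7 and 5.66 CPM in the DRG. Lrrc4b, an adhesion protein related to the netrin-G ligands, had 23.3, 19.7 and 50.1 CPM in the TG, against 8.93, 9.47 and 3.87 CPM in the DRG, and Flrt1 had 3.36, 8.56 and 11.4 CPM in the TG, against 1.80, 2.64 and 1.71 CPM in the DRG. All 3 were higher in every TG library (log2 fold changes 2.44 ± 0.50, 2.08 ± 0.52 and 1.93 ± 0.56, edgeR adjusted p = 0.0171, 0.0281 and 0.0431). Plxnc1, the plexin that binds Sema7a, had 41.0, 19.1 and 18.0 CPM in the TG, against 63.5, 52.2 and 128 CPM in the DRG, and Adam10, a protease that cleaves ephrins, had 25.6, 21.2 and 17.6 CPM in the TG, against 46.1, 32.2 and 78.4 CPM in the DRG. The 2 fell in mole TG (log2 fold changes -1.65 ± 0.47 and -1.29 ± 0.38, edgeR adjusted p = 0.0422 and 0.046). In mouse 1 of the 22 was higher in the libraries labelled TG and 2 were lower, against 1.12% and 1.21% of all genes. Plxnc1 had 479 and 524 CPM in the mouse libraries labelled TG, against 227 and 176 CPM in those labelled DRG. It was higher in the libraries labelled TG (log2 fold change 1.31 ± 0.16, edgeR adjusted p = 0.02), opposite by label to mole. Reln, a secreted cue of neuronal positioning, had 75.1 and 81.0 CPM in the libraries labelled TG, against 185 and 169 CPM in those labelled DRG, and Cxcl12, a chemokine, had 24.9 and 26.7 CPM in the libraries labelled TG, against 49.9 and 48.1 CPM in those labelled DRG. Those 2 were lower in the libraries labelled TG (log2 fold changes -1.18 ± 0.13 and -0.92 ± 0.15, edgeR adjusted p = 0.0166 and 0.0378).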

How the data were processed

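RNA was sequenced from TG and DRG, and the deposited counts, whole reads per gene without normalization, were used. Alignment by the authors used Stampy 1.0.11 (substitution rate 0.03), in mole against human transcripts, with leftover reads tried on dog and after that on mouse, and in mouse against mouse transcripts. A mole count is the sum over homologs (HomoloGene build 64), so mole counts rest on how well each gene's reads match another species. Deposited lists of gene names that the authors called were not used, and the third mouse library of each ganglion was not analysed here.

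Libraries were grouped by label. The test was edgeR 4.0.16 under R 4.3.3 (filterByExpr with a minimum count of 10, TMM factors, quasi-likelihood test, Benjamini-Hochberg adjustment over all genes tested, threshold 0.05). CPM are TMM-scaled. Standard errors (SE) are the log2 fold change over the root of F. All 70 genes passed the filter in both species, and none was at 0 in any library, although 10 had under 10 counts in a mole library. Replicate pairs all differed beyond sampling noise. DESeq2 1.42.0, limma 3.58.1 (voom), other scalings, filters and library subsets were alternatives. GC content and length came from GENCODE mouse transcripts, which matched all 70 genes and 75.6% of mole genes tested, short of the coverage at which a check over all genes would hold, so offsets were applied only where a gene matched. The tests were also run on simulated counts with a constant spread and no kit effect, GC trend or outlying library. Those runs cannot show how the tests behave under these features of the mole data. Values in every library were given for genes called in either species, the 10 interactions of lowest adjusted p and the highest CPM of each family in each species, and for up to 3 genes a direction from the effector and cue lists. The genes and lists were chosen with earlier results of these data known.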

Additional observations from a re-analysis of the deposited data

Results flagged for a closer look

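For 24 genes the TG against DRG difference in mole differed from that in mouse by label, by the edgeR interaction test (log2, mole minus mouse, adjusted p under 0.05). The Hox genes go against the mouse labels, and with those labels exchanged 7 genes passed, of which Nrp1, Sema3c, Plxna4 and Epha3 were among the 24. By label, in the semaphorin system the positive ones were Sema6c (3.09), Sema4c (2.94), Sema3b (2.78), Sema4g (2.34), Plxnb3 (2.31), Sema6b (2.23) and Plxnb1 (1.75). The negative ones there were Sema3c (-4.91), Nrp1 (-3.19), Sema3d (-3.004), Sema4d (-2.93), Sema6d (-2.31), Plxna4 (-2.18), Sema3e (-1.75) and Sema4f (-1.41). In the ephrin system Efnb3 (3.62), Efna4 (3.43) and Efna3 (1.89) were positive and Efna5 (-3.70), Epha3 (-2.79) and Epha5 (-2.17) negative. Ntn5 (4.45) and Ntng2 (2.84) were positive, and Robo2 (-2.42) was negative. Efnb3 and Efna4 rested on mole libraries with as few as 5 counts. Plxnb1 and Plxnb3 had nearly the same mouse counts, so their mouse values are uncertain as separate measurements. With 1 mole library left out, 18 to 30 guidance genes passed (10.3% to 29% of all symbols). Fewer passed without any 1 mouse library, where 1 was left in a group.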

How the results depend on the processing

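Shares of all genes called under the same setting are in brackets. The 27 mole calls (23.5%) were 15 with GC offsets (12%) and 10 with GC offsets and a replicate block (10.6%). They were 47 without TG 1 and DRG 2 (63.2%), 6 at an adjusted p of 0.01 (2.43%) and 6 to 29 with 1 library left out (2.19% to 36.8%). Plxnd1 turned to -0.33 with GC offsets and -0.31 with the block added, and Sema6b to -0.020 with both. The other settings gave 21 to 37 (11.7% to 35.1%), all 27 remaining with DESeq2 and limma-voom. With the TruSeq libraries alone 21 were called, 17 of them among the 27 (15% of all genes called). With library kit as a covariate 25 were called, 23 of them among the 27 (22.6%). Upper-quartile factors moved the median of all genes by 0.14 and gave 17 higher and 10 lower (23.3%). The 12 mouse calls (2.33%) were 21 with DESeq2 (8.4%) and 0 at an edgeR adjusted p of 0.01 (0.136%). At an unadjusted edgeR p under 0.05 there were 33 (16.2%). Other settings gave 10 to 15 (1.72% to 3.77%), apart from a crossed block given with the pairing. The mouse calls did not hold without either library labelled TG, a fit with 1 library left in that group. The 24 interactions (17%) were 7 with the mouse labels exchanged (7.25%) and 43 by a z test of the separate fits (43.8%). They were 14 at an adjusted p of 0.01 (5.05%), 18 to 30 with 1 mole library left out (10.3% to 29%) and 19 to 24 otherwise (14.5% to 15.1%). Fewer passed without any 1 mouse library, where 1 was left in a group. The cause of these shifts was not tested.

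Whether same-numbered libraries were paired could not be decided, and which libraries shared an animal was not stated. Deviations of same-numbered mole libraries correlated at 0.372, 0.490 and -0.169. TG 1 and TG 2 correlated best with the DRG library of their own number, and TG 3 with DRG 2. Deviations were taken from the mean of each group, so those within a group cancel out and the correlations are not independent. With the replicate block 21 mole genes were called, 20 of them among the 27 (20% of all genes called). The block gave 11 calls in mouse, 10 of them among the 12 (2.6%), and 19 interactions (14.5% of all symbols). In mouse the correlation was -0.128, and with so few libraries a group every pair across labels has that same size by construction. A crossed block, added after this was seen, called 27 (10.7% of all genes). The low counts of 10 genes in mole, among them Ntn5, Ntn3, Efna2 and Epha3, limit the precision of their fold changes.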
